A study of Mus musculus with 12 samples.

Results

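The genes described here are the D-type cyclins Ccnd1, Ccnd2 and Ccnd3, their kinases Cdk4 and Cdk6, the kinase inhibitors Cdkn1b, Cdkn2a, Cdkn2b and Cdkn2c, and the pocket protein gene Rb1. They were taken by gene name from the deposited mRNA table, where they make up 10 of 21771 genes and 39 of 59215 transcripts. A further 18 of 42870 rows of the lncRNA table carry one of these gene names. All were measured in MTEC1, a mouse line labelled as medullary thymic epithelial and as WT, grown in DMEM with fetal bovine serum. The treated cultures received PAMK at 50 µg/ml for 12 h. PAMK is not spelled out in the labels and commonly stands for the polysaccharide of Atractylodes macrocephala Koidz. The control cultures received none and were collected after 6 h according to the series' design text, so treatment and culture time cannot be told apart. Each group had 3 total RNA libraries and, as separate libraries, 3 small RNA libraries. No source used here says that the libraries of a group are separate cultures, so every p-value measures only the spread between these libraries, which may be technical.

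Cells commit to a new round of DNA replication late in G1. Growth signals raise the D cyclins, which bind CDK4 or CDK6, and the active kinases phosphorylate the retinoblastoma protein RB1 so that it releases the E2F transcription factors that switch on S phase genes. The INK4 proteins block CDK4 and CDK6 directly, whereas p27, the product of Cdkn1b, belongs to the CIP/KIP inhibitors and mainly holds back cyclin E with CDK2. Much of this control acts on protein stability, phosphorylation and complex assembly, which RNA levels do not show. The design text states that the dose had been picked in viability and EdU tests as one that raised MTEC1 proliferation, which makes the G1 genes a natural set to compare.

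The total RNA values are FPKM, fragments per kilobase of transcript scaled to sequencing depth, a unit inferred from the table layout because the file headers call the values normalized counts. Their sums over the mRNA table ran from 133687 to 145883, and the fragment counts behind them are unknown. Pairs of libraries had similar correlations within and between groups (Pearson r of log2 gene values 0.880 to 0.894 over all 15 pairs). Most markers of the labelled cell type were at or near 0: 5 of 8 epithelial genes (Epcam, Krt5, Krt14, Krt19 and Cldn4) and 4 of 6 medullary thymic genes (Aire, Fezf2, Ccl21a and Tnfrsf11a) were listed at 0 in all 6 libraries. The epithelial genes summed to at most 0.323 FPKM in any library and the medullary thymic genes to at most 0.271 FPKM. Of 4 general thymic epithelial genes, Ly75 was at 0.906 to 2.21 FPKM, Pax9 was listed at 0 throughout, and Foxn1 and Psmb11 stayed at or below 0.0242 FPKM. The 8 mesenchymal genes summed to 502 to 644 FPKM in controls and 587 to 771 FPKM with PAMK, but they were uneven. S100a4 (298 to 391 FPKM) and Vim (92.5 to 253 FPKM) led the sum, and Col1a1 and Col3a1 were at 28.3 to 79.4 FPKM. Col1a2 was at 0.0143 FPKM in control 1, at 0 in PAMK 1 and PAMK 3, and at 61.7 to 91.2 FPKM elsewhere. Pdgfra was at 0.787 to 5.45 FPKM, Pdgfrb reached at most 0.368 FPKM and Thy1 at most 0.0335 FPKM. All 5 haematopoietic genes together reached at most 0.00182 FPKM. An exact 0 in this table need not mean that no RNA was present, since 6 of 7 mitochondrial genes were listed at 0 throughout. The reason was not tested, and whether it extends to nuclear genes is unknown. Genes with an exact 0 are therefore called listed at 0 here.

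No gene of the G1 set passed the test for a difference between PAMK and control cells. Of the 10 genes, 8 had a mean of at least 0.5 FPKM and were tested with limma on log2(FPKM + 1), a scale that understates the change of low genes, and 0 of the 8 passed a Benjamini-Hochberg adjusted p of 0.05. Among all genes, 7 of 9781 passed (0.0716%), so a count of 0 among 8 is near the background. None of the 8 reached an unadjusted limma p under 0.05 either, against 10.0% of all genes tested. That number was 1 without a filter, 1 with equal medians, 3 without control 3 and 0 under the other processing alternatives. The smallest adjusted limma p among the 8 genes was 0.512, and across the processing alternatives it lay between 0.431 and 0.729. The fold change was above 0 for 6 of the 8 genes, with a median of 0.31 on the log2 scale, against 60.5% and a median of 0.06 for all genes tested. In a bulk sample, fewer cells of one kind and less RNA per cell cannot be told apart.

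The levels spanned from abundant to listed at 0. Per transcript length, Cdk4 had the highest control mean at 78.7 ± 24.1 FPKM (SD, n = 3), followed by Ccnd2 at 57.2 ± 19.6, Ccnd3 at 33.1 ± 3.61, Ccnd1 at 24.8 ± 0.969 and Cdkn1b at 20.8 ± 1.72 FPKM. Cdkn2c at 9.83 ± 10.5, Cdk6 at 2.01 ± 1.36 and Rb1 at 1.20 ± 1.05 FPKM came below, and Cdkn2a and Cdkn2b were listed at 0. With PAMK the order was the same except that Ccnd2 (90.0 ± 13.0 FPKM) stood above Cdk4 (72.1 ± 4.91 FPKM). The control ranges of Cdk4 and Ccnd2, Cdkn1b and Cdkn2c, and Cdk6 and Rb1 overlapped, and which gene of these pairs was higher varied between libraries. Those of Ccnd2 and Ccnd3 and of Cdkn2c and Cdk6 overlapped too, but within libraries Ccnd2 was above Ccnd3 in 6 of 6 and Cdkn2c above Cdk6 in 5 of 6.

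**Figure D1:**
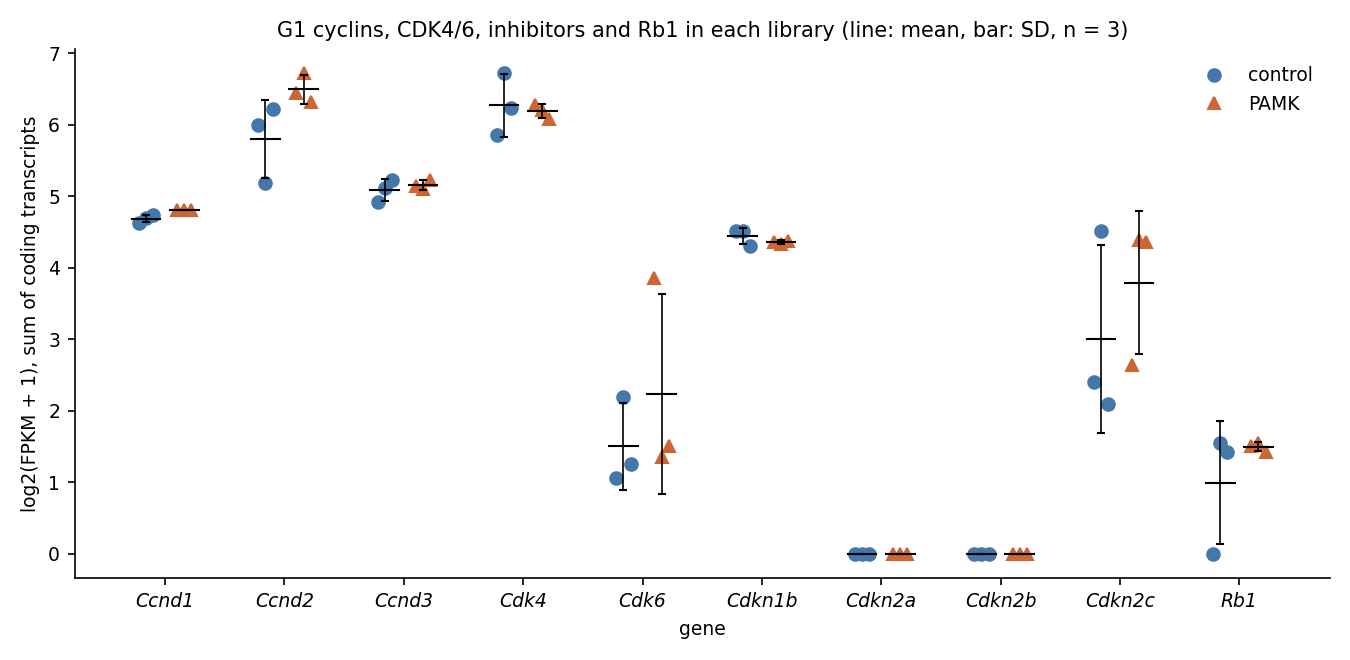
Level of each gene in every total RNA library as log2(FPKM + 1) of the summed coding transcripts, with circles for control, triangles for PAMK, a line at the group mean and a bar for the SD (n = 3). Ccnd1 and Cdkn1b stay within 0.18 and 0.20 log2 units over the 6 libraries, Cdkn2c and Cdk6 range over 2.42 and 2.80, and Cdkn2a and Cdkn2b lie at 0.

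The genes also differed in how steady they were from library to library. Ccnd1 and Cdkn1b were among the steadiest genes in the table: only 7.98% and 10.98% of tested genes had a smaller range over the 6 libraries. Cdkn2c and Cdk6 were at the other end, with ranges larger than those of 90.5% and 93.9% of genes, and the median gene ranged over 0.67 log2 units. These ranges pool both groups and describe the libraries only.

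Ccnd1 encodes cyclin D1, the D cyclin most closely tied to growth factor and integrin signals. Ccnd1 (chromosome 7, 144929931 to 144939869, minus strand) was listed at 23.8, 24.9 and 25.7 FPKM in controls 1 to 3 and at 26.9, 27.01 and 27.1 FPKM in PAMK libraries 1 to 3. All 3 PAMK libraries lay above all 3 controls, by a small margin. The log2 fold change was 0.12 ± 0.049 (SE, 95% interval -0.01 to 0.24, limma adjusted p 0.512), and it shrank to 0.003 when library medians were made equal and to 0.08 after quantile normalization. The coding level came entirely from ENSMUST00000093962. A short noncoding row of the gene, ENSMUST00000208193, was listed at 1.33, 1.26 and 1.25 FPKM in the controls and at 2.01, 2.57 and 2.26 FPKM in the PAMK libraries. That row also stood above in every PAMK library, with a log2(FPKM + 0.1) fold change of 0.78 ± 0.19, but did not pass among 23670 lncRNA rows (limma adjusted p 0.740). Its fold change was larger than that of the coding transcript, and the difference between them was not tested.

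Ccnd2, cyclin D2, is best known in lymphoid cells and gonads and responds to PI3K and MYC signals. Ccnd2 (chromosome 6, 127125162 to 127152193, minus strand) was listed at 62.8, 35.4 and 73.3 FPKM in controls 1 to 3 and at 86.6, 104 and 79.0 FPKM in PAMK libraries 1 to 3. The groups did not overlap, although control 3 came close to PAMK 3, and control 2 lay well below the other controls. The log2 fold change was 0.70 ± 0.293 (SE, 95% interval -0.04 to 1.44, limma adjusted p 0.516), and it was 0.39 without control 2. The highest PAMK value rested on 1 transcript: ENSMUST00000201902, which starts upstream of the main form, was at 26.4 FPKM in PAMK 2 and at 0.0194 FPKM or less in the other 5 libraries. Without that transcript the main one, ENSMUST00000000188, was still above in PAMK, at 62.3, 34.7 and 72.7 FPKM in controls and 85.8, 77.7 and 78.5 FPKM with PAMK (fold change 0.57 ± 0.282 on the log2 scale, limma adjusted p 0.682). Ccnd1 and Ccnd2 were thus 2 of 8 genes with all PAMK libraries above all controls, a pattern seen in 14.1% of all genes tested.

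Ccnd3 encodes cyclin D3, which drives the expansion of developing thymocytes and is the most widely expressed D cyclin. Its transcripts begin at a pair of starts far apart, and the data bear on which is used. RefSeq windows of GRCm38.p6 around both starts are shown, with the 50 transcribed bases in capitals.
Ccnd3 upstream start, chr17:47504801-47505100, plus strand: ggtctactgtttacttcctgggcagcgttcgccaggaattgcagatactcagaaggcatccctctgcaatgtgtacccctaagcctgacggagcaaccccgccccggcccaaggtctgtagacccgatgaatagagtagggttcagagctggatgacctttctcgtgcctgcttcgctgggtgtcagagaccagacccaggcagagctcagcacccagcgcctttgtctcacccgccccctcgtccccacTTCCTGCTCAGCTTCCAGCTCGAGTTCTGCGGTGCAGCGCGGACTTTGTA
Ccnd3 downstream start, chr17:47593217-47593516, plus strand: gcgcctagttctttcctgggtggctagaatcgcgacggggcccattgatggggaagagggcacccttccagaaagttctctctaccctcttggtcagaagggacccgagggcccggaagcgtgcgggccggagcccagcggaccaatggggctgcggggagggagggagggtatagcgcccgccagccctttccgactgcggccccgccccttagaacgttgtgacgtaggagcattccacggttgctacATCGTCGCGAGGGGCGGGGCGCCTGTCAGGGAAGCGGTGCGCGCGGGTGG
Nearly all of the coding level came from the downstream start. ENSMUST00000182209, which begins 3 bases from the downstream RefSeq start, held 98.9% to 99.8% of the coding level in every library, and the noncoding row ENSMUST00000183061, which begins near the upstream start, reached at most 0.512 FPKM. Of the 16 coding transcripts, 11 were listed at 0 in all libraries.

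Ccnd3 (chromosome 17, 47505051 to 47599691, plus strand) was listed at 29.3, 33.6 and 36.4 FPKM in the controls and at 34.3, 33.4 and 36.6 FPKM in the PAMK libraries. The groups overlapped, and control 1 was the low library. On the log2 scale the fold change was 0.07 ± 0.093 (limma adjusted p 0.806), and its sign turned with equal medians (-0.04) and without control 1 (-0.01). The 3 cyclins together came to 116, 93.8 and 136 FPKM in controls and to 148, 165 and 143 FPKM with PAMK. Every PAMK sum was above every control sum, with an exact two-sided permutation p of 0.1, the smallest that 3 against 3 libraries allow (adjusted 0.3 over 9 ratios and sums). Ccnd2 made up 54.2%, 37.7% and 54.1% of the sum in controls and 58.6%, 63.3% and 55.4% with PAMK, again without overlap (exact permutation p 0.1, adjusted 0.3). Ccnd2 was the largest part of the sum in every library, so the sum and the share partly restate its values above. In PAMK 2 both include the 26.4 FPKM of ENSMUST00000201902.

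Cdk4 encodes the main partner kinase of the D cyclins, a known target of MYC in human cells. The window at its start is printed because it holds the letters CACGTG, the E-box that MYC with MAX can bind, 4 times; the capitals mark these matches, searched on both strands, which for this palindrome are the same letters.
Cdk4 start, chr10:127063285-127063584, plus strand: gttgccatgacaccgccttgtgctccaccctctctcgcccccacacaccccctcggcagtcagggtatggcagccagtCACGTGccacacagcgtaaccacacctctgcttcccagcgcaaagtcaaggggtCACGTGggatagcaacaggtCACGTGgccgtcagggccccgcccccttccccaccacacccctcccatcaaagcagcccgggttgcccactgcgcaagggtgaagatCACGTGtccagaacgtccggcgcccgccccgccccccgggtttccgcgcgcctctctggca
At least 1 CACGTG was found in 2349 of 32851 RefSeq windows of the same length (7.15%), and at least 4 in 8 of them (0.0244%). A match is a description of the letters, not of binding. The leading transcript ENSMUST00000006911 starts 1 base from the RefSeq start used.

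Cdk4 (chromosome 10, 127063534 to 127067920, plus strand) was listed at 56.8, 105 and 74.7 FPKM in the controls and at 76.6, 72.8 and 66.8 FPKM in the PAMK libraries. Both the lowest and the highest value were controls, and the PAMK libraries lay between them. For the coding sum the log2 fold change was -0.08 ± 0.227 (limma adjusted p 0.913), and it changed sign to 0.14 without control 2. In that library the short transcript ENSMUST00000125682 was listed at 34.5 FPKM, against 2.99 to 3.47 FPKM in the other 5. The leading transcript was at 48.8, 66.5 and 69.4 FPKM in controls and 68.9, 65.2 and 58.9 FPKM with PAMK, so the high sum of control 2 came from the short form. ENSMUST00000133115 was at 4.45, 3.43 and 1.92 FPKM in controls and 4.60, 4.53 and 4.95 FPKM with PAMK, without overlap (log2 fold change 0.46 ± 0.25, limma adjusted p 0.715).

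A large share of the RNA assigned to Cdk4 was in noncoding rows. ENSMUST00000140254 was listed at 19.7, 18.8 and 16.9 FPKM in the controls and at 28.1, 32.5 and 33.1 FPKM in the PAMK libraries, all PAMK libraries being above. Its log2(FPKM + 0.1) fold change was 0.75 ± 0.163 (unadjusted limma p 0.00305), but the adjusted p over the lncRNA table was 0.596. ENSMUST00000145670, a short form of the downstream exons, was at 56.5, 77.3 and 82.1 FPKM in the controls and at 75.8, 86.6 and 83.8 FPKM in the PAMK libraries, and the groups overlapped. The other noncoding rows had means of 1.41 to 10.8 FPKM per group and overlapped as well. With all noncoding rows added, Cdk4 summed to 144 to 215 FPKM in controls and 192 to 201 FPKM with PAMK, a log2 fold change of 0.13 in place of the negative coding value. Of the 14 noncoding rows of the G1 genes that were tested, 0 passed (0.038% of all lncRNA rows did), and 3 had all PAMK libraries above all controls, against 7.06% of all lncRNA rows tested. Cdk4 shares 641 bases with Tspan31 on the opposite strand, and with the strand setting not given in the sources used here, reads of the pair there cannot be told apart. The same holds where Ccnd1, Ccnd2, Ccnd3, Cdk6 and Rb1 overlap rows on the opposite strand.

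Cdk6, the other D cyclin kinase, is prominent in blood cells. Cdk6 (chromosome 5, 3341485 to 3531008, plus strand) was listed at 1.08, 3.57 and 1.39 FPKM in the controls and at 13.5, 1.56 and 1.83 FPKM in the PAMK libraries. PAMK 1 stood far above the rest, and the other PAMK libraries lay inside the control range. ENSMUST00000042410 accounted for 12.5 FPKM in PAMK 1 and for 0.322 to 2.86 FPKM elsewhere. Its log2 fold change of 0.74 ± 0.773 (limma adjusted p 0.767) turned to -0.07 without PAMK 1. The ratio of Cdk4 to Cdk6 was 52.6, 29.2 and 53.9 in controls and 5.68, 46.6 and 36.5 with PAMK, overlapping between groups (exact permutation p 0.4).

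**Figure D2:**
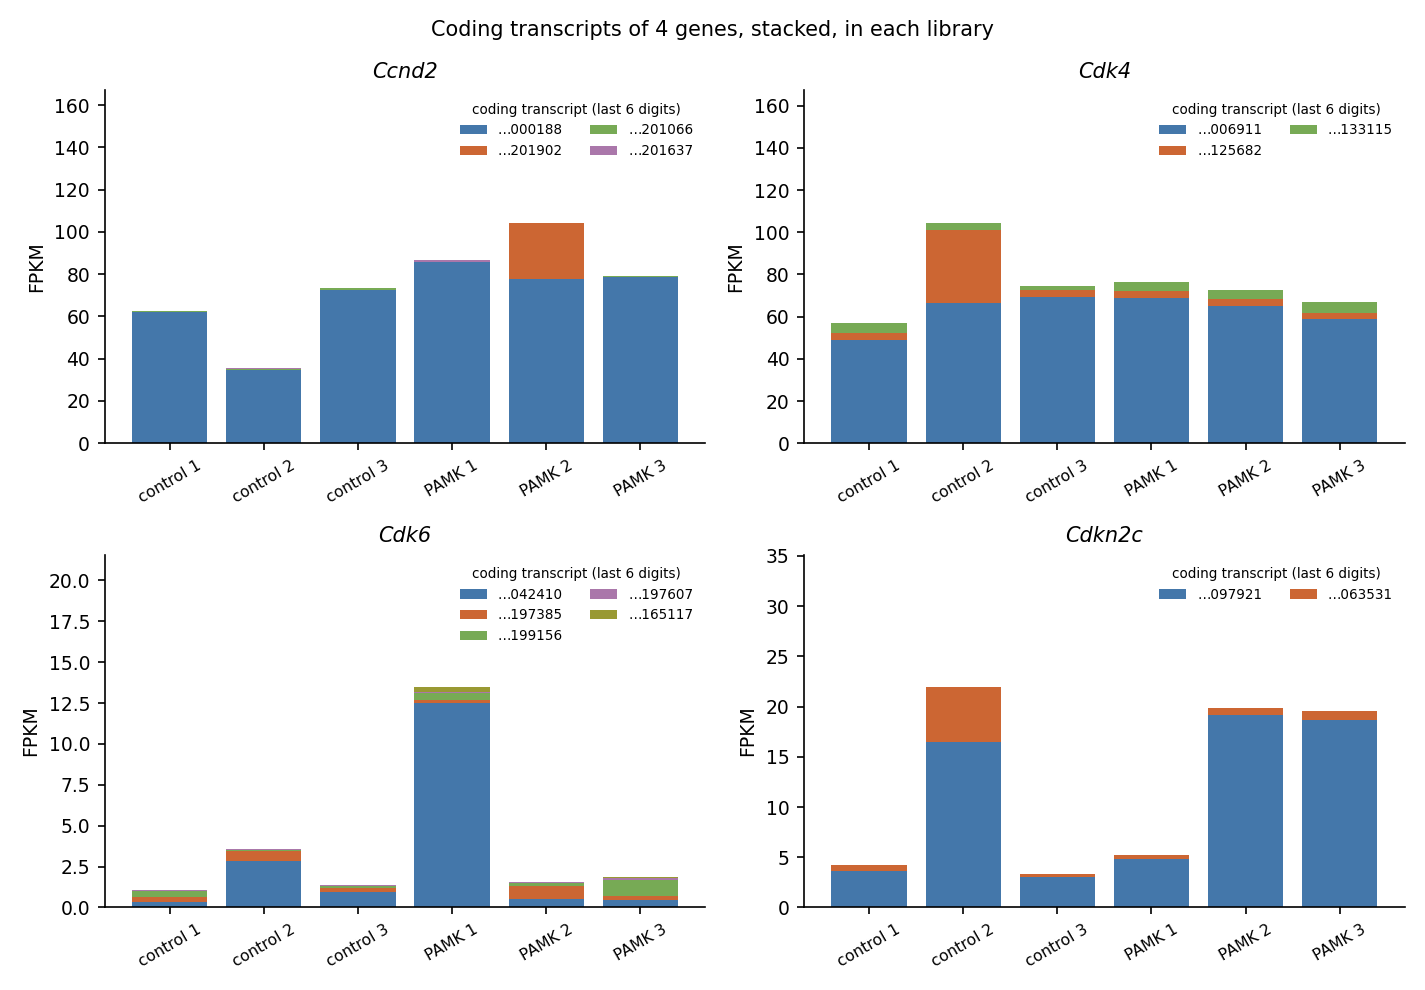
Coding transcripts of Ccnd2, Cdk4, Cdk6 and Cdkn2c stacked in each library, in FPKM, with transcripts named by the last 6 digits of their Ensembl number. Single libraries stand out: 26.4 FPKM of an upstream-start Ccnd2 transcript in PAMK 2, 34.5 FPKM of a short Cdk4 transcript in control 2 and 12.5 FPKM of the main Cdk6 transcript in PAMK 1.

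Single libraries set the extreme values of Ccnd2, Cdk4 and Cdk6, each through 1 transcript. The share of the leading transcript overlapped between the groups in all 6 genes with more than 1 transcript above 0 (exact permutation p from 0.2 to 0.9, adjusted 0.9 for each). Over the 13 coding transcripts of the G1 genes that were tested, 0 passed (0.204% of 14728 transcripts passed in all), 4 had all PAMK libraries above and 1 had all below, against 10.8% and 5.12% of all transcripts. How StringTie divided reads between overlapping forms was not tested.

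Cdkn1b encodes p27, whose amount in cells is set largely by degradation of the protein. Cdkn1b (chromosome 6, 134920401 to 134925513, plus strand) was listed at 21.8, 21.9 and 18.8 FPKM in the controls and at 19.5, 19.1 and 19.9 FPKM in the PAMK libraries. Controls 1 and 2 were above every PAMK library and control 3 was below every one. In log2 units the change was -0.09 ± 0.074 (SE, 95% interval -0.28 to 0.10, limma adjusted p 0.716), and -0.20 with equal medians (limma adjusted p 0.431). The 2 coding forms above 0, ENSMUST00000067327 and ENSMUST00000003115, were at 12.7 to 15.5 and 3.93 to 7.62 FPKM across the libraries, and both overlapped between groups. The D cyclin sum divided by Cdkn1b was 5.32, 4.29 and 7.19 in controls and 7.57, 8.62 and 7.19 with PAMK, with control 3 just above PAMK 3 (exact permutation p 0.2).

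The annotated transcripts of the INK4 genes Cdkn2a and Cdkn2b were listed at 0. Cdkn2a encodes p16INK4a and, in another reading frame, p19ARF, an activator of p53, and Cdkn2b beside it encodes p15INK4b; both slow the division of cultured mouse cells. Both Cdkn2a transcripts (chromosome 4, 89274471 to 89294653) and the 1 Cdkn2b transcript (89306299 to 89311039) were listed at 0 in all 6 libraries, so neither gene was tested. They were not alone in this. All 10 annotated rows of 7 genes (Gm49890, Gm49891, Wincr1, Mtap, Gm12606, Cdkn2a and Cdkn2b) in a stretch of 401 kb, 88909855 to 89311039, were listed at 0 in every library. For comparison, 6400 of 20653 genes of the mRNA table on the numbered chromosomes and X (30.99%) were listed at 0 in all libraries. Gm49890, Gm49891, Wincr1 and Gm12606 come from the lncRNA table, for which no such share was taken. How often neighbouring genes are at 0 together was not tested. Mtap encodes an enzyme of the methionine salvage pathway.

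The lncRNA table nevertheless holds assembled rows with the Cdkn2b name. MSTRG.18866.1 runs from 88869160 to 89311030 and MSTRG.18866.2 from 88882281 to 89311030, both on the minus strand of chromosome 4. Their start lies 2 bases inside the RefSeq start of Cdkn2b, whose window is shown with the 50 transcribed bases in capitals.
Cdkn2b start, chr4:89310983-89311282, minus strand: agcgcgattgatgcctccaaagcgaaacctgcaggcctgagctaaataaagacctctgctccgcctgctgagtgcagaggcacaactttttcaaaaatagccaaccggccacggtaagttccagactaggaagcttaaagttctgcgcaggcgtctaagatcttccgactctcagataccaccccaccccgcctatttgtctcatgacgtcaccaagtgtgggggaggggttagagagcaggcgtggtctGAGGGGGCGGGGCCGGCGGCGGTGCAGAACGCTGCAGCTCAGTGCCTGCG
Both rows pass over the whole stretch listed at 0 and end beyond it. MSTRG.18866.2 ends just short of the interferon gene Ifne (88879538 to 88880201, minus strand), and MSTRG.18866.1 runs across Ifne and ends past it. MSTRG.18866.1 was listed at 4.53, 2.99 and 2.44 FPKM in the controls and at 3.04, 3.10 and 3.18 FPKM in the PAMK libraries. MSTRG.18866.2 was at 5.32, 2.81 and 2.85 FPKM in the controls and at 3.72, 4.01 and 3.79 FPKM in the PAMK libraries. Control 1 was the highest library for both, and the groups overlapped (log2 fold changes -0.05 ± 0.254 and 0.13 ± 0.28, limma adjusted p 0.995 and 0.976). Both signs turned when single controls were left out.

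**Figure D3:**
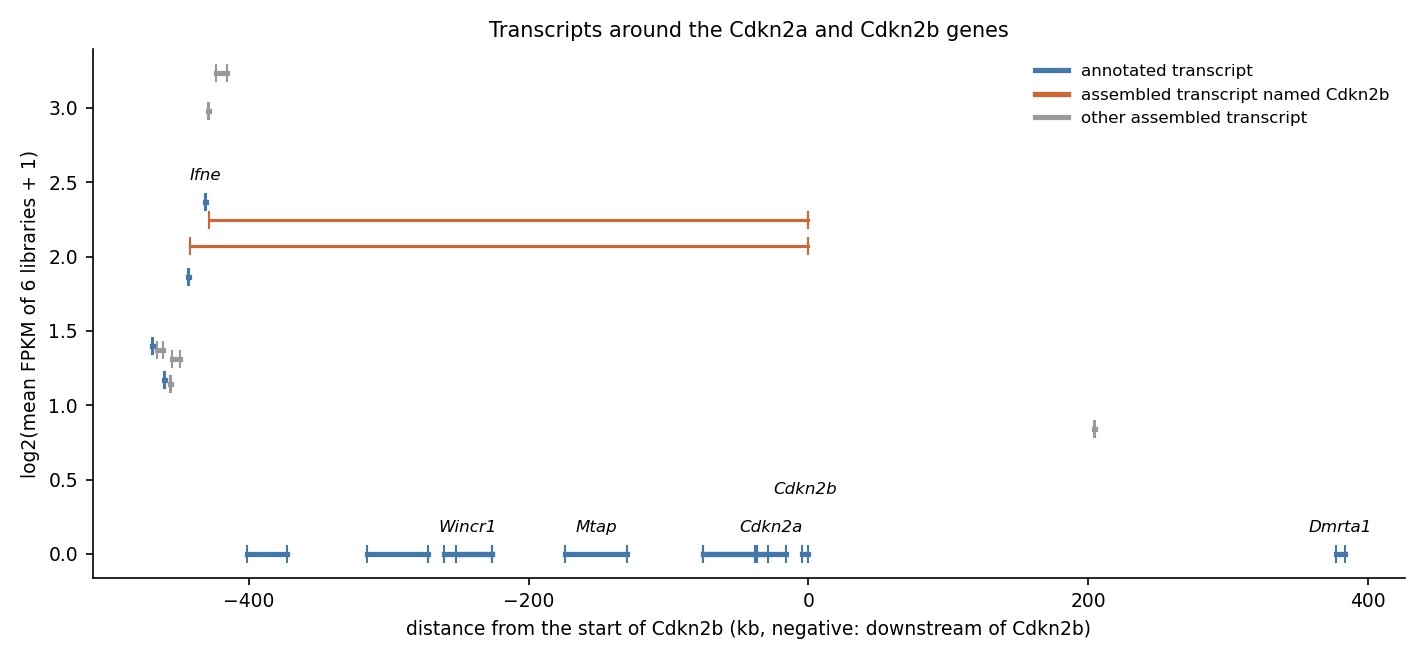
Transcripts around Cdkn2a and Cdkn2b on chromosome 4, placed by distance in kb from the start of Cdkn2b (negative is downstream of it) and by log2 of the mean FPKM of 6 libraries plus 1. Annotated rows from Cdkn2b across Mtap lie at 0 over 401 kb, while the assembled rows named Cdkn2b run across that stretch to the neighbourhood of Ifne.

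Genes just outside the stretch did have values. Ifne was listed at 4.62, 2.73 and 3.20 FPKM in the controls and at 4.47, 5.20 and 4.71 FPKM in the PAMK libraries. It lies within the span of MSTRG.18866.1 on the same strand, and how reads were divided between these rows was not tested. An assembled row without a gene name, MSTRG.18866.3, lies between Ifne and the stretch and ranged from 5.85 to 12.6 FPKM. Klhl9, farther along, was at 40.3 to 45.5 FPKM. Of 32 flanking mRNA rows, 21 were above 0 in all 6 libraries, whereas Dmrta1, the next gene on the other side, was listed at 0. The exons of the assembled rows are not in the tables used here, and the cause of the pattern was not tested.

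Cdkn2c, which encodes p18INK4c, was listed above 0 in every library. So was the other INK4 gene, Cdkn2d (p19INK4d), named here after its values were seen, at 13.6, 17.4 and 2.75 FPKM in the controls and at 14.3, 2.59 and 16.1 FPKM in the PAMK libraries. Its groups overlapped (limma adjusted p 0.992), and its low libraries, control 3 and PAMK 2, were in different groups. Cdkn2c (chromosome 4, 109660876 to 109667189, minus strand) was listed at 4.27, 21.9 and 3.29 FPKM in the controls and at 5.21, 19.9 and 19.5 FPKM in the PAMK libraries. The libraries fell into a low set (controls 1 and 3 and PAMK 1) and a high set (control 2, PAMK 2 and PAMK 3), and no value lay between 5.21 and 19.5 FPKM. The fitted log2 fold change was 0.79 ± 0.835 (limma adjusted p 0.769), ranging from 0.33 without control 3 to 1.54 without control 2. The leading transcript ENSMUST00000097921 followed the same split, at 3.06 to 4.80 FPKM in the low set and 16.5 to 19.1 FPKM in the high set. The shorter ENSMUST00000063531 was at 5.47 FPKM in control 2 and at 0.230 to 0.887 FPKM elsewhere. The summed D cyclins, Cdk4 and Cdk6 divided by Cdkn2c gave 40.7, 9.20 and 64.4 in controls and 45.6, 12.0 and 10.8 with PAMK (exact permutation p 0.7). Cdkn2c is the divisor of that ratio, so its low values in the 3 libraries with high Cdkn2c restate the split above.

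Rb1 encodes the pocket protein that the D cyclin kinases phosphorylate. Rb1 (chromosome 14, 73195502 to 73325822, minus strand) was listed at 0, 1.93 and 1.68 FPKM in the controls and at 1.85, 1.93 and 1.69 FPKM in the PAMK libraries. Apart from the 0 in control 1, the libraries lay within 1.68 to 1.93 FPKM. Its noncoding rows ENSMUST00000168495 and ENSMUST00000169002 were not at 0 in control 1 (0.318 and 0.181 FPKM). Rb1 shares 12342 bases with a transcript of Rcbtb2 and 5400 bases with one of Lpar6, both on the opposite strand. Fitted over all 6 libraries, the log2 fold change was 0.50 ± 0.442 (limma adjusted p 0.719) and 0.009 without control 1. Its relatives Rbl1 (p107) and Rbl2 (p130) were steadier, at 11.4 to 12.5 and 1.75 to 2.12 FPKM, and the ratio of Rbl1 to Rbl2 overlapped between groups (exact permutation p 0.6).

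**Figure D4:**
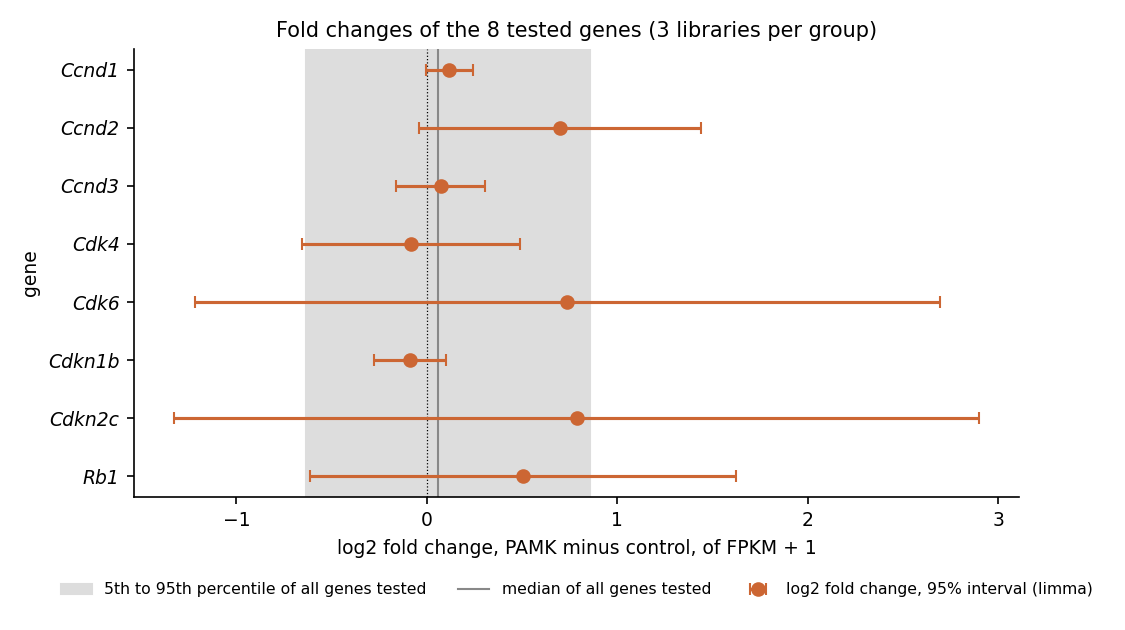
Log2 fold change of FPKM + 1, PAMK minus control, with its 95% interval from limma for the 8 tested genes, over the 5th to 95th percentile (-0.63 to 0.86, shaded) and median (0.06) of all 9781 genes tested. At the deposited scaling shown, every interval includes 0. Those of Ccnd1 (-0.01 to 0.24) and Cdkn1b (-0.28 to 0.10) are narrow, and those of Cdk6 and Cdkn2c span more than 3 log2 units. The signs of Ccnd3, Cdk4 and Cdk6 turn under alternatives.

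The intervals bound what these libraries can show. For Ccnd1 and Cdkn1b the 95% intervals, at the deposited scaling, did not reach beyond 0.28 log2 units in either direction. That bound depends on the scaling. With equal medians the unadjusted limma p of Cdkn1b was 0.0397 (adjusted 0.431), so its 95% interval there lay below 0. For Cdk6 the interval ran from -1.22 to 2.69 and for Cdkn2c from -1.33 to 2.90, each reaching farther up than down. Changes of any size within these intervals cannot be told from no change.

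Genes around the G1 set were compared in 6 lists drawn from textbook knowledge, and 0 of their 101 tested members passed in either direction. Unadjusted limma p-values under 0.05 were reached by 12 of the 101, 9 with higher and 3 with lower values in PAMK, against 7.3% and 2.71% of all genes. Of the 12, 7 were upstream of the D cyclins (6 higher and 1 lower). The pocket protein and repressor lists held 0 of them. The log2 fold change was above 0 for 64 of the 101, with a median of 0.10. By list, 14 further inhibitors and G1/S kinases had 6 values above 0 and 8 below, 17 pocket protein and E2F genes had 11 and 6, and 18 genes of cyclin D and p27 turnover had 11 and 7. The 25 genes upstream of the D cyclins had 14 above and 11 below, 11 repressors of the Cdkn2a locus had 8 and 3, and 24 E2F target genes had 16 and 8. Some genes, such as Ccne1 and E2f1, stood in more than 1 list and were counted in each.

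Among the inhibitors and later kinases, Cdkn1a, which encodes p21, was abundant at 81.7, 71.8 and 55.5 FPKM in controls and 68.4, 71.7 and 50.9 FPKM with PAMK (fold change -0.13 ± 0.196 on the log2 scale, limma adjusted p 0.843, sign turned without PAMK 3). Cdkn3, a phosphatase that acts on CDK2 and CDK1, was at 0.960, 0.837 and 0.669 FPKM in the controls and at 2.57, 1.496 and 2.52 FPKM in the PAMK libraries. It stood above in every PAMK library without passing (log2 fold change 0.79 ± 0.18, limma adjusted p 0.305). Ccnh, the cyclin of the CDK-activating kinase, was likewise above, at 2.67 to 5.48 and 5.73 to 6.88 FPKM (0.68 ± 0.252, limma adjusted p 0.489). Ccne1, cyclin E1, was at 8.94 FPKM in control 3 and between 0.214 and 1.69 FPKM elsewhere, and Cdk2 at 0.530 to 2.33 FPKM overlapped. Cdc25a, a phosphatase that activates CDK2, overlapped too, at 1.75 to 4.47 FPKM in controls and 3.54 to 5.15 FPKM with PAMK.

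Of the pocket protein and E2F genes, E2f1, an activator of S phase genes, was at 0.407, 0.410 and 6.36 FPKM in controls and 3.31, 2.09 and 0.333 FPKM with PAMK, with no order by group. E2f4, the E2F that mostly sits with p130 and p107, was above in every PAMK library by a small margin (19.5 to 20.7 against 21.3 to 26.1 FPKM, log2 fold change 0.17 ± 0.0925, limma adjusted p 0.580). Hdac2, a deacetylase that pocket proteins recruit, was also above (22.4 to 23.7 against 24.6 to 25.3 FPKM), with a log2 fold change of 0.10 that turned to -0.02 with equal medians (limma adjusted p 0.552 as deposited). The repressors E2f7 and E2f8 overlapped between groups, with single high values of 7.63 FPKM in PAMK 2 and 5.28 FPKM in PAMK 1.

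In the turnover list, Skp2, the ubiquitin ligase subunit that marks p27 for degradation, was at 1.90, 1.71 and 1.55 FPKM in the controls and at 3.31, 3.80 and 2.91 FPKM in the PAMK libraries. Its values did not overlap, and its log2 fold change was 0.67 ± 0.125, but it did not pass (limma adjusted p 0.280). With noncoding isoforms added the fold change was 0.24. Skp1a, a shared subunit of the same ligase, was at 115 to 131 FPKM in all controls and PAMK 2 and at 21.1 and 11.3 FPKM in PAMK 1 and 3 (log2 fold change -1.96 ± 0.848, limma adjusted p 0.526). Ddb1 and Ubac1, further ligase components, overlapped between groups.

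Upstream of the cyclins, Myc was at 13.7, 14.1 and 13.6 FPKM in controls and 15.4, 16.2 and 20.1 FPKM with PAMK. All PAMK libraries were above (log2 fold change 0.29 ± 0.11, limma adjusted p 0.490), and the fold change was 0.18 without PAMK 3 and with equal medians. Ctnnb1, which encodes β-catenin, was at 69.3, 69.1 and 69.5 FPKM in the controls and at 80.9, 97.0 and 84.1 FPKM in the PAMK libraries (0.33 ± 0.0761, limma adjusted p 0.315). Pik3ca, a catalytic subunit of PI3K, was at 0.0113 to 0.0149 FPKM in the controls and at 1.77, 1.34 and 2.88 FPKM in the PAMK libraries. It had the smallest unadjusted p of these lists (log2 fold change 1.53 ± 0.201, limma adjusted p 0.165). Mapk3 (ERK1) was above in PAMK and Map2k1 (MEK1) below, each without overlap, at 0.26 ± 0.0596 and -0.24 ± 0.0682 on the log2 scale (limma adjusted p 0.305 and 0.386).

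Among E2F target genes, Mcm4, a subunit of the replicative helicase, was at 7.56, 9.15 and 11.5 FPKM in the controls and at 6.25, 6.09 and 5.19 FPKM in the PAMK libraries. Pcna, the replication clamp, was at 238 to 239 FPKM in the controls and at 226, 209.7 and 220.7 FPKM in the PAMK libraries. Both lay below the controls in every PAMK library without passing (log2 fold changes -0.59 ± 0.164 and -0.12 ± 0.0404, limma adjusted p 0.373 and 0.438). Of the repressors of the Cdkn2a locus, Bmi1 and Pcgf2 overlapped and Suz12 was below in every PAMK library. Suz12 was listed at 2.53, 1.596 and 14.9 FPKM in controls and 0.358, 1.20 and 0.689 FPKM with PAMK (fold change -1.62 ± 0.731 on the log2 scale, limma adjusted p 0.535).

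The genes whose levels most resembled each tested gene over the 6 total RNA libraries were found among 4503 to 4504 other genes with a mean of at least 5 FPKM, as a description only. The highest Pearson r of log2 values were with Med15 (0.998) and Polr2h (0.993) for Ccnd1, with Serpinb6a (0.988) and Nhp2 (0.982) for Ccnd2, and with Rsl24d1 (0.978) and Vwa8 (0.973) for Ccnd3. Cdk4 was most like Gnai2 (0.974) and Xrn2 (0.972), Cdk6 like Myadm (0.985) and Nap1l1 (0.980), and Cdkn1b like Dnpep (0.970) and Mogs (0.967). Cdkn2c was most like Numa1 (0.994) and Rprd1b (0.991), and Rb1 like Kpna4 (0.998) and Tra2b (0.997). With 6 points and so many candidates, such values are easily reached, and libraries share their depth and preparation.

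The small RNA libraries allow a look at miRNA families that have been reported, mostly in human cells, to act on these genes. A miRNA pairs through its seed, bases 2 to 8, with sites in target transcripts. The deposited sequences of the most abundant member of 7 families follow, with the seed in capitals; the miR-34 family was led by miR-34c-5p, whose sequence is not printed. All but the variants marked R+1, which carry extra bases at the 3′ end, matched a RefSeq mature miRNA in full.
miR-15b-5p, of the family reported to act on Ccnd1, Ccnd3 and Cdk6: tAGCAGCAcatcatggtttaca
let-7b-5p, reported for Ccnd2 and Cdk6: tGAGGTAGtaggttgtgtggtt
miR-93-5p, reported for Ccnd1: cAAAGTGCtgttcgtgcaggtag
miR-222-3p_R+1, reported for Cdkn1b: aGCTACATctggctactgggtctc
miR-24-3p_R+1, reported for Cdkn2a and Cdk4: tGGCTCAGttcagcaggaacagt
miR-29a-3p, reported for Cdk6: tAGCACCAtctgaaatcggtta
miR-26a-5p, reported for Ccnd2 and Cdk6: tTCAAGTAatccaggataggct
Each seed is shared by the other members of its family listed in the data. Sites in the G1 transcripts were not searched.

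Of 33 tested miRNAs in the 8 families, 0 passed (0.0% of 479 small RNAs), and 5 had an unadjusted limma p under 0.05, against 15.7% of all. Deposited values are normalized counts, tested on log2(value + 1). The fold change was above 0 for 27 of the 33, against 47.8% of all small RNAs, with a median of 0.13, and 4 had all PAMK libraries above all controls, against 10.4% of all small RNAs. Members of the miR-15/16 family were all above 0, 6 of 6, with a median of 0.30. Its leading member miR-15b-5p was at 69292, 53912 and 61004 normalized counts in controls and at 78140, 67764 and 76860 with PAMK, with PAMK 2 inside the control range (log2 fold change 0.28 ± 0.119, limma adjusted p 0.309).

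The let-7 family was nearly level. Its leading member let-7b-5p was at 195069 to 213136 normalized counts in controls and 197129 to 207331 with PAMK (fold change -0.02 ± 0.0802 on the log2 scale, limma adjusted p 0.852). A single member stood apart and is named here after its values were seen: let-7e-5p was at 29911, 31108 and 28260 normalized counts in controls and at 72163, 39762 and 43728 with PAMK (0.75 ± 0.212, limma adjusted p 0.218). For miR-222-3p_R+1, controls were at 100088, 93167 and 82867 normalized counts and PAMK libraries at 89847, 161991 and 134665. PAMK 1 lay within the controls and the other two PAMK libraries well above (log2 fold change 0.45 ± 0.206, limma adjusted p 0.332). The leading members of the miR-34, miR-17, miR-24, miR-29 and miR-26 families had log2 fold changes of 0.19, 0.17, 0.12, -0.13 and -0.05, with overlap between groups in each.

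**Figure D5:**
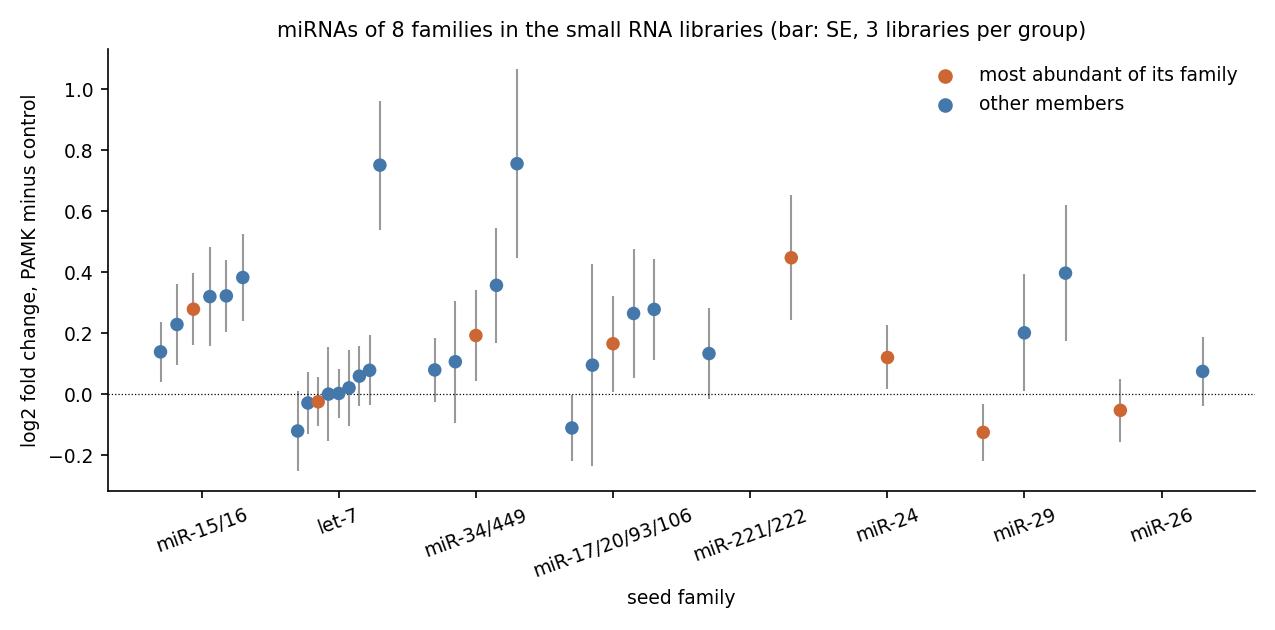
Log2 fold change of normalized counts + 1, PAMK minus control, with its SE for each tested miRNA of 8 seed families (3 small RNA libraries per group), the most abundant of each family in orange. Points of the miR-15/16 family lie between 0.14 and 0.38, and let-7e-5p at 0.75 stands apart from the other let-7 members, which lie between -0.12 and 0.08.

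The small RNA result rests on 1 library. Without the PAMK 1 small RNA library, 134 of 479 small RNAs passed (28.0%, 66 higher and 68 lower), and 6 of the 33 family members were among them, all higher with PAMK. They were miR-15a-5p (log2 fold change 0.45, limma adjusted p 0.0376), let-7e-5p (0.49, 0.00396), miR-322-5p (0.45, 0.0358), miR-222-3p_R+1 (0.69, 0.00346), miR-34c-5p (0.34, 0.0358) and miR-20a-5p (0.50, 0.0158). Leaving out any other small RNA library gave 0 family members past the threshold. Equal medians moved the median small RNA from -0.02 to 0.11 on the log2 scale. Under that scaling let-7b-5p, miR-29a-3p and miR-26a-5p, which lay below 0 as deposited, had values of 0.10, 0.004 and 0.08.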

How the data were processed

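Total RNA of MTEC1 cells was depleted of ribosomal RNA and sequenced as paired reads, and small RNA libraries were made with a TruSeq kit, per the labels' protocols. Tools named in the submitters' processing notes are cutadapt, FastQC, HISAT2, StringTie and edgeR, and ACGT101-miR is named for small RNA in the labels' protocols. Versions, genome build, annotation and strand setting: not given in the sources used here. FPKM is the unit inferred for the deposited mRNA and lncRNA tables, whose columns are headed normalized counts. Small RNA columns hold a signal headed normalized counts, per the file headers, with a scaling not given in the sources used here. A deposited 0.0001 FPKM stands for nothing measured and was set to 0. It filled 55.6% to 58.1% of mRNA rows per library.

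Coding transcripts were summed by gene name. Rows with a mean of at least 0.5 FPKM (mRNA genes and transcripts), 0.1 FPKM (lncRNA) or 10 normalized counts (small RNA) were tested as log2 values with pseudocounts of 1, 0.1 and 1. The two-sided test was limma 3.58.1 (R 4.3.3) with an eBayes intensity trend, and p-values were adjusted by Benjamini-Hochberg over all rows of a table at 0.05. Ratios and shares were compared with exact two-sided permutation tests. The counts behind the values were not recovered, so no count test was run. Replicate numbers are shared between groups, but no label ties a number to a culture, so no block was used.

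The genes, lists, families and naming rule were chosen with earlier results of these data known. The 10 genes, those of their transcripts averaging at least 1 FPKM, up to 4 genes per list with the smallest unadjusted p (with Cdkn1a, Ccne1, Cdk2, E2f1, Rbl1, Rbl2 and Myc in any case), the most abundant miRNA of each family and the 2 most alike genes were named. Some genes that the rule picks are not reported here. The lncRNA alternatives were chosen after seeing the data. Positions are printed as deposited. Of 20166 symbols shared with a RefSeq table of GRCm38.p6, 20164 overlapped their RefSeq gene, the 10 genes included. Promoter and miRNA sequences are from RefSeq GRCm38.p6 and the deposited small RNA table. Windows for Ccnd1, Ccnd2 and Rb1 were not used here.

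As a check, changes of known size were added to data simulated from the observed means and spreads. The changes were fold changes of the value plus its pseudocount, and rows with low means were only raised, never lowered. The spread of each row was drawn from a normal distribution, which does not mimic values set by a single library. The shares called may therefore not hold for low genes or for genes with such values. Among 9781 mRNA genes, 46% of 2-fold and 83% of 8-fold changes were called, with 8 false calls. Among 14728 transcripts the shares were 27% and 73%, among 23670 lncRNA rows 1% and 58%, and among 479 small RNAs 76% and 95%. With nothing changed there were 0 calls in each.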

Additional observations from a re-analysis of the deposited data

How the results depend on the processing

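No G1 gene, none of its coding or noncoding transcripts and no gene of the 6 lists passed under any alternative run: pseudocounts, filters, equal medians, quantile normalization, eBayes without a trend or robust, a replicate block, noncoding isoforms added, or each library left out. Family miRNAs passed only without PAMK 1 of the small RNA libraries, where miR-34c-5p (0.34) and miR-222-3p_R+1 (0.69) were among those called. Under settings other than leaving out a library, 610 fold changes kept their direction and side of the threshold and 12 turned.

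Counts over whole tables moved more, and the cause was not tested. Genes past the threshold numbered 7 as reported, 4 with robust eBayes, 0 with the replicate block and 4 to 19 with a library left out. Transcripts numbered 30, with 18 without a filter, 0 with the block and 20 to 64 with a library left out. Rows of the lncRNA table numbered 9, with 3 at a pseudocount of 1, 2 at a minimum mean of 0.5 FPKM, 0 with the block and 2 to 17 with a library left out. Small RNAs numbered 0, and 0 to 134 with a library left out, and family miRNAs 0, and 0 to 6. The block, which took replicate numbers as pairs, changed no call among the G1 genes. Deviations of same-numbered total RNA libraries had correlations of -0.0229, 0.00663 and 0.00313, and of small RNA libraries -0.0990, 0.0817 and 0.0236. Pairs with different numbers ranged from -0.0323 to 0.0286 and from -0.187 to 0.178. With so few libraries, this cannot tell whether a number marks a shared culture or day.

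The directions that turned, with their log2 values, were the following. With equal medians these were Ccnd3 (-0.0439), Hdac2 (-0.0178), ENSMUST00000182209 (-0.0282), ENSMUST00000006911 (-0.0277), ENSMUST00000003115 (-0.0461), mmu-let-7b-5p (0.105), mmu-miR-29a-3p (0.00431) and mmu-miR-26a-5p (0.0766). With quantile normalization they were ENSMUST00000003115 (-0.0279) and mmu-miR-24-3p_R+1 (-0.0295), and with noncoding isoforms added Cdk4 (0.130) and Rbl1 (0.0140). With a library left out the ranges were -0.0103 to 0.143 for Ccnd3, -0.293 to 0.142 for Cdk4, -0.0717 to 1.18 for Cdk6, -0.278 to 0.0250 for Cdkn1a, -0.460 to 0.0531 for Cdk2 and -0.305 to 0.889 for E2f1. Among transcripts they were -0.0126 to 0.143 for ENSMUST00000182209, -0.0808 to 0.169 for ENSMUST00000006911, -0.516 to 1.08 for ENSMUST00000042410, -0.188 to 0.216 for ENSMUST00000003115, -0.969 to 0.229 for ENSMUST00000063531 and -0.312 to 0.0203 for ENSMUST00000123456. They were -0.238 to 0.196 for MSTRG.18866.1, -0.0204 to 0.429 for MSTRG.18866.2, -0.0587 to 0.00519 for let-7b-5p and -0.135 to 0.000126 for miR-26a-5p. Group differences ranged from -14.4 to 10.7 FPKM for the sum of Cdk4 and Cdk6 and from -0.0129 to 0.354 for the ratio of Rbl1 to Rbl2. For the leading transcript share they ranged, in percentage points, from -12.0 to 0.413 for Ccnd2, -0.211 to 0.292 for Ccnd3, -0.267 to 14.4 for Cdk4, -29.6 to 3.73 for Cdk6 and -5.90 to 1.17 for Cdkn1b.

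Total RNA depth is unknown, so no detection limit can be given for the genes listed at 0, and transcripts present in 1 library only cannot be told from assignment between overlapping forms.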
